A study of Mus musculus with 42 samples.

Results

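The genes described here are 10 regulators of cell death and survival, taken by gene name from the count table. They comprised 6 survival genes (Bcl2a1b, Bcl2a1d, Bcl2, Bcl2l1, Mcl1 and Cflar) and 4 pro-apoptotic genes (Bcl2l11, Bid, Bax and Bak1), out of 54532 genes listed. All 10 were found under 1 identifier each, and all 10 were among the 17648 genes that passed the filter on low counts. Expression was measured by bulk RNA sequencing of 42 libraries in 12 groups, and was described for the 2 classes of genes apart.

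The cells were bone marrow-derived macrophages, which were grown from unsorted marrow in medium containing the growth factor M-CSF. All libraries came from male wild-type C57BL/6 mice, which were 10 to 12 weeks old in the young groups and 18 to 20 months old in the aged groups. Each age had the same 6 treatments: a vehicle control of 0.1% normal saline for 24 h, collected 3 days afterwards; β-glucan at 5 µg/mL, collected after 4 h, after 24 h, or 3 days after an exposure of 24 h; LPS at 100 ng/mL for 4 h; and β-glucan for 24 h followed at day 3 by LPS for the last 4 h, here called primed. β-Glucan is a fungal cell wall sugar that is used to train macrophages, and LPS is the bacterial lipopolysaccharide that activates them through Toll-like receptor 4. The young control and young LPS groups held 6 libraries and the other groups held 3. Controls were collected only at the late time, so the comparisons of 4 h and 24 h with control also differed in time, and the labels do not give the culture day of the LPS groups. No source states whether replicates were separate mice or separate cultures, so p-values measure the spread between these libraries alone.

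Macrophage identity was checked from 8 marker genes, whose summed level was 23081 to 36534 CPM (counts scaled to a common library total) over the libraries. Summed markers reached at most 4.90 CPM for neutrophils, 10.2 CPM for T cells, 1.63 CPM for B cells, 12.6 CPM for dendritic cells, 39.1 CPM for endothelial cells and 112 CPM for stromal cells. Both the dendritic and the endothelial sums moved with LPS. Dendritic cell markers summed to 0.660 to 1.98 CPM in young controls and 6.64 to 12.6 CPM in young LPS libraries, and endothelial markers to 2.90 to 5.70 and 26.6 to 35.5 CPM. In aged cells the dendritic sums were 1.07 to 1.47 and 7.85 to 10.4 CPM and the endothelial sums 3.19 to 3.29 and 24.8 to 30.2 CPM. The dendritic sum was carried by Xcr1, at up to 11.8 CPM, while Zbtb46, Clec9a, Flt3 and Siglech reached at most 1.40, 0.826, 0.295 and 0.145 CPM. The endothelial sum was carried by Kdr, at up to 38.3 CPM, while Cdh5 and Tek reached at most 1.67 and 0.299 CPM and Emcn was at 0 in every library. Stromal sums were higher in aged than in young cells without overlap at 4 h of β-glucan (33.3 to 86.1 against 18.1 to 23.5 CPM). The same held at 24 h (49.0 to 78.6 against 18.5 to 21.8) and at day 3 (45.5 to 84.8 against 21.9 to 29.1 CPM). It also held in primed cells (54.9 to 109 against 20.7 to 31.5 CPM), while controls and LPS libraries of the 2 ages overlapped. No sorting step is described. In bulk RNA a lower value can come from fewer cells of a type or from less RNA per cell, and these cannot be told apart.

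Proteins of the Bcl2 family decide whether the outer membrane of the mitochondrion is breached. Bax and Bak1 form the pores, the BH3-only proteins Bcl2l11 (Bim) and Bid trigger them, and the survival members Bcl2, Bcl2l1 (Bcl-xL), Mcl1 and Bcl2a1 (A1) bind and restrain both kinds. Cflar (c-FLIP) acts upstream, where it blocks caspase-8 at death receptors, and caspase-8 is the protease that cuts Bid into its active form. In macrophages and neutrophils, A1 and Cflar are known as targets of NF-κB, the transcription factor that Toll-like receptors switch on.

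Mouse A1 is encoded by several nearly identical genes, and this limits how each copy can be read. The count table places Bcl2a1d at chr9:88723285-88731914 (mm10, minus strand), Bcl2a1a at chr9:88956900-88962419 (plus strand) and Bcl2a1b at chr9:89199209-89207827 (plus strand). Bcl2a1a is not among the 10 genes but was followed beside them. Their coding sequences in GENCODE M21 are 516 bases long each. Bcl2a1b and Bcl2a1d differ at 6 of these bases (98.8% identity), Bcl2a1a and Bcl2a1d at 7, and Bcl2a1a and Bcl2a1b at 11. Of the 12 coding positions at which any copy differs, 7 lie in the first 150 bases, which are shown because a read must cover such a position to be told apart. Capitals mark these 7 positions.
Bcl2a1a: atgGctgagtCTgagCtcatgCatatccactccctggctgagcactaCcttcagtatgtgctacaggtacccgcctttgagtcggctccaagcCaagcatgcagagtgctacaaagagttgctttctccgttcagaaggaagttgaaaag
Bcl2a1b: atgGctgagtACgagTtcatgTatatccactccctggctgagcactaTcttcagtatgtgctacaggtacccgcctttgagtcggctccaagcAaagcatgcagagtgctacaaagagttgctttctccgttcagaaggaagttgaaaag
Bcl2a1d: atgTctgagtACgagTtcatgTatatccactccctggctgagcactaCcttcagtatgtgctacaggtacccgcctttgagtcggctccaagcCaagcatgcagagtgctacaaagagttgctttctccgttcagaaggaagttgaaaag
Long runs without any difference follow this stretch. Of all 100-base stretches in the transcripts, 54.7% of those of Bcl2a1d, 43.5% of those of Bcl2a1a and 31.1% of those of Bcl2a1b occur letter for letter in another copy. The read length and the handling of reads that match several places are not given in the sources used here, so the split of counts between copies is uncertain, while their sum is less so.

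The upstream windows of the copies were also nearly the same. In RefSeq's promoter windows (GRCm38.p6, 250 bases before to 50 after the start), each of the 3 copies holds TGAATCA. This matches TGANTCA, the loose pattern searched for AP-1 on both strands, in which N stands for any base. Distances are counted from RefSeq's starts, which lie inside the genes as the count table places them. The match begins 114 bases before the start of Bcl2a1d, 120 before that of Bcl2a1a and 164 before that of Bcl2a1b. It is shown in capitals in the 107 bases around it. Whether it bears on the rise of the 3 copies with LPS was not tested.
Bcl2a1d: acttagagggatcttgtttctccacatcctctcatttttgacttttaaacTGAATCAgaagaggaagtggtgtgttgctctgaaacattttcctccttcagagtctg
Bcl2a1a: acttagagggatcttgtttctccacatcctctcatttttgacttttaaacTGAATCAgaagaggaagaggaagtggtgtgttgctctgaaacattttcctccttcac
Bcl2a1b: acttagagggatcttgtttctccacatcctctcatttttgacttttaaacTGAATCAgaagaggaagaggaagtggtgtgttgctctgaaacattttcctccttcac
These stretches lie at chr9:88731908-88732014 for Bcl2a1d (minus strand), chr9:88956750-88956856 for Bcl2a1a (plus strand) and chr9:89199059-89199165 for Bcl2a1b (plus strand). The pattern TGANTCA occurs in 7.81% of all 32851 windows. Among the other members, the Cflar window holds a match to the interferon-response motif ISRE (TTTCGGTTTC read on the other strand; 3.44% of all windows), beginning 7 bases after the start. Of the 3 windows of Bcl2l1, 1 holds a match to the NF-κB motif (GGGGGTCTCC), a motif that 8.46% of all windows hold. The windows of Bcl2a1a, Bcl2a1b, Bcl2a1d and Cflar held no match to the NF-κB motif. These 3 motifs, searched on both strands, had no match in the windows of the other members. A match or its absence says nothing of binding.

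**Figure D1:**
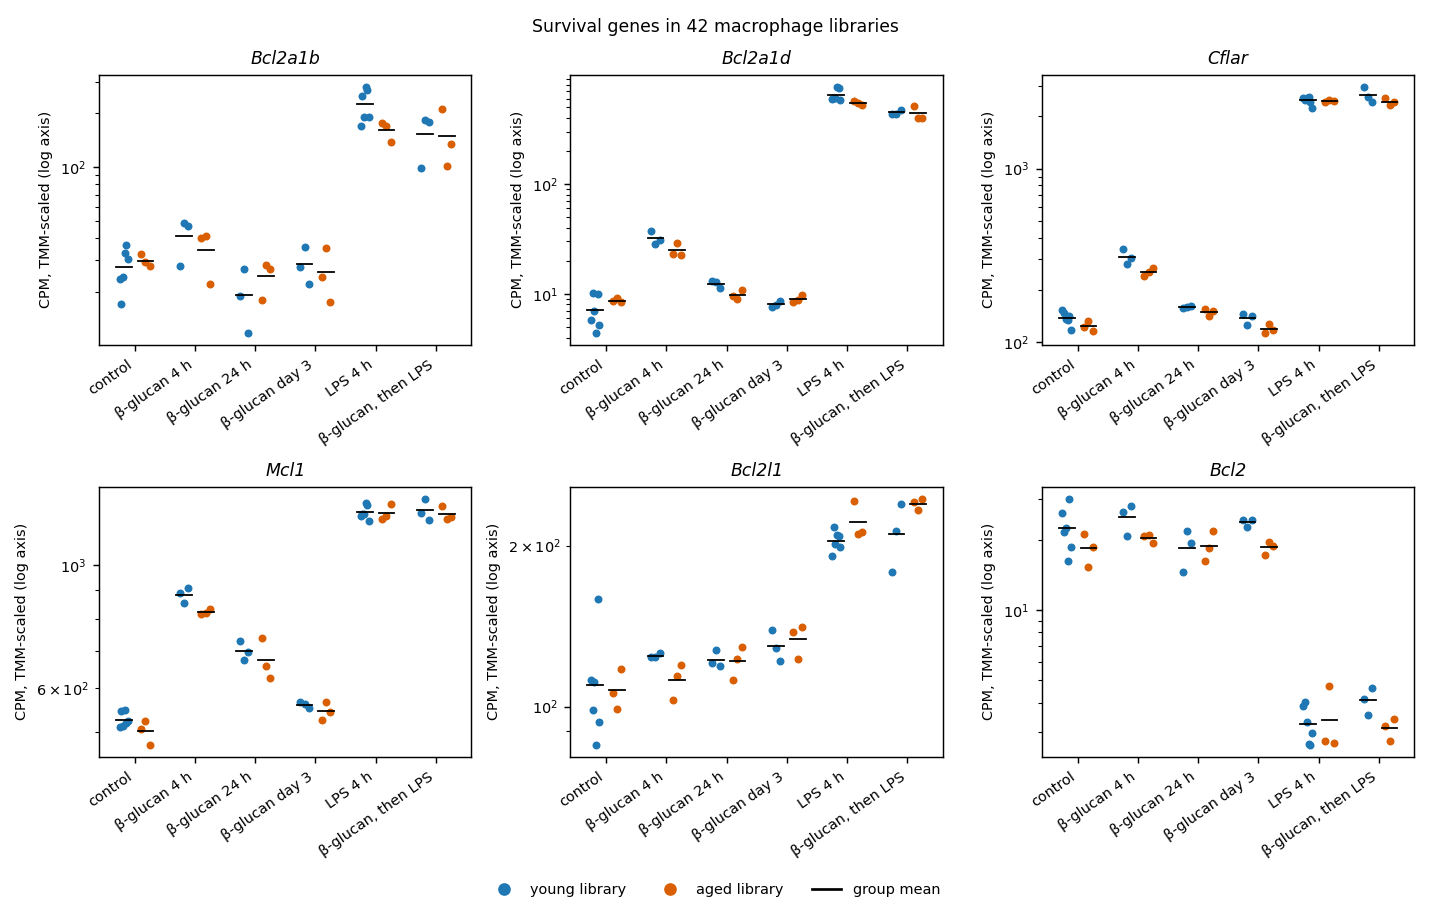
Level of each of the 6 survival genes in every library, in TMM-scaled CPM on a log axis, by treatment, with young libraries in blue, aged in orange and black lines at the group means. Compared with controls, the LPS libraries are higher for Bcl2a1b, Bcl2a1d, Cflar and Mcl1 and lower for Bcl2, also with total-count scaling, while the gap of Bcl2l1 in young cells is lost with total counts, and Mcl1 with LPS falls below its level at 4 h of β-glucan with total counts in young cells.

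Library scaling bears on every gene in the comparisons with LPS, so it is set out first. Total counts ran from 39850835 to 67347866 per library. Levels below are CPM after TMM scaling (trimmed mean of M values, a factor that aligns the bulk of genes between libraries). The TMM factors were 1.13 to 1.28 in libraries without LPS and 0.667 to 0.777 in libraries with LPS. With total counts alone as the scale, the median over genes shifted by −0.80 on the log2 scale for LPS against control in young cells and by −0.73 in aged cells, so a change under LPS that is smaller than this depends on the scaling. Differences were tested with edgeR's quasi-likelihood test, and p was adjusted by the Benjamini-Hochberg method over all 17648 genes within a comparison, with 0.05 as the threshold. Errors of log2 fold changes are standard errors.

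LPS moved the survival genes in opposite directions: transcripts of A1 and Cflar rose steeply, Mcl1 rose by a smaller amount under either scaling, and Bcl2 fell to a fraction of its control level. After TMM scaling, 9 of the 10 genes were higher and 1, Bcl2, was lower with LPS than in control in young cells. This comparison called 65% of all genes, 30.3% as higher and 34.7% as lower. In aged cells the counts were the same, 9 higher and 1 lower, where 55.5% of all genes were called, 26.6% as higher and 28.9% as lower. Scaled by total counts, 8 members were called in young cells, 4 higher (Bcl2a1b, Bcl2a1d, Mcl1 and Cflar) and 4 lower (Bcl2, Bcl2l11, Bid and Bax). In aged cells 9 were then called, 6 higher (the same 4 with Bcl2l1 and Bak1) and 3 lower (Bcl2, Bcl2l11 and Bax). Of all 17648 genes, that scaling called 13337 in young and 11851 in aged cells, in either direction. With more than 1 in 2 genes called, the count of members called says little about them, and their sizes are given instead.

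Bcl2a1d, a copy of A1, had a lowest, median and highest level of 4.44, 6.41 and 10.2 CPM in the 6 young controls and of 579, 605 and 767 CPM in the 6 young LPS libraries. The aged controls stood at 8.54, 9.12 and 8.40 CPM and the aged LPS libraries at 567, 550 and 530 CPM. No LPS library came near a control at either age. The log2 fold change was 6.51 ± 0.16 in young cells (adjusted p = 2.2e-27, edgeR) and 5.98 ± 0.22 in aged cells (adjusted p = 7.1e-22, edgeR).

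Bcl2a1b started from a higher level and rose less. It had a lowest, median and highest level of 17.1, 27.4 and 36.8 CPM in young controls and of 169, 222 and 282 CPM with LPS. Aged controls held 32.5, 29.5 and 27.9 CPM and aged LPS libraries 177, 171 and 138 CPM. The groups did not overlap, and the log2 fold change was 3.06 ± 0.23 in young and 2.44 ± 0.32 in aged cells (adjusted p = 5.0e-13 and 1.1e-07, edgeR). Bcl2a1a, the remaining copy with counts, went from at most 1.07 CPM in young controls to 66.3 to 94.6 CPM with LPS, a log2 fold change of 7.26 ± 0.32.

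Because the copies share reads, their makeup was also taken within each library, where no scaling between libraries enters. Bcl2a1b held 77.6% ± 8.7 (SD, n = 6) of the counts of the 3 copies in young controls and 23.4% ± 2.5 (n = 6) with LPS, while Bcl2a1d went from 20.9% ± 9.0 to 68.0% ± 1.8 and Bcl2a1a from 1.46% ± 1.14 to 8.53% ± 0.85. In aged cells Bcl2a1b went from 76.6% ± 1.0 to 20.5% ± 1.6 (n = 3 each). The lowest control share of Bcl2a1b, 62.6%, was more than its highest share with LPS, 27.2%, in young cells. When the counts of the copies were summed, the log2 fold change with LPS was 4.78 in young cells and 4.33 in aged cells.

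**Figure D2:**
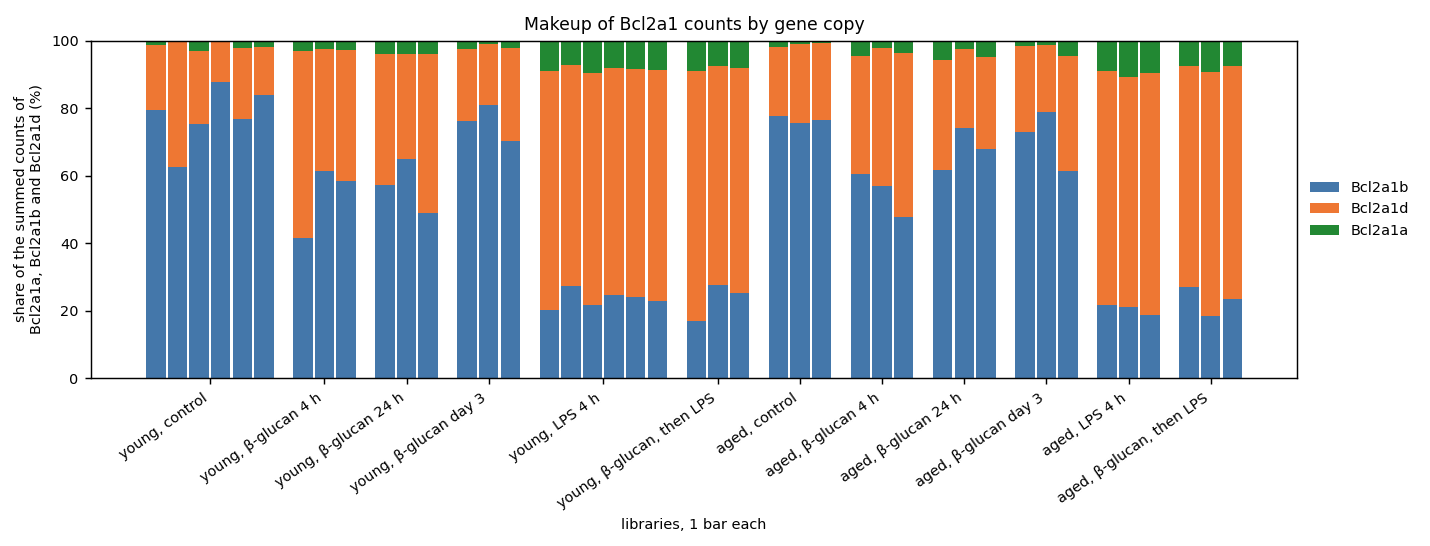
Share of each A1 gene copy in the summed counts of Bcl2a1a, Bcl2a1b and Bcl2a1d, with 1 bar per library, grouped by age and treatment. Bcl2a1b holds 62.6% or more in every young control and 27.2% or less in every young LPS library, and the libraries at 4 h of β-glucan lie between.

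Cflar, which restrains caspase-8, stood at 118, 139 and 154 CPM (lowest, median and highest) in young controls and at 2244, 2520 and 2584 CPM in young LPS libraries. In aged cells it went from 122, 132 and 116 CPM to 2430, 2487 and 2439 CPM. The aged LPS libraries lay within the range of the young ones. Its log2 fold change was 4.16 ± 0.07 in young and 4.31 ± 0.10 in aged cells, and the adjusted p of 3.9e-38 in young cells (edgeR) was the smallest among the members there.

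Mcl1, which encodes a short-lived survival protein, was the most abundant of the 10 per length in control cells. Young controls held 511, 521 and 547 CPM (lowest, median and highest) and young LPS libraries 1197, 1236 and 1293 CPM. Aged controls held 508, 524 and 475 CPM and aged LPS libraries 1212, 1227 and 1286 CPM. The groups were far apart within each age, and the log2 fold change was 1.24 ± 0.05 in young and 1.31 ± 0.07 in aged cells (adjusted p = 8.6e-26 and 7.7e-21, edgeR). Scaled by total counts it still rose, by 0.44 and 0.57 on the log2 scale.

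Bcl2, the founding survival member, was the only one of the 10 that fell after TMM scaling, while with total counts Bcl2l11 and Bax were lower as well at both ages and Bid in young cells. Young controls held 16.2, 22.1 and 29.9 CPM (lowest, median and highest) and young LPS libraries 2.64, 3.13 and 4.01 CPM. Aged controls held 21.1, 15.3 and 18.6 CPM and aged LPS libraries 2.74, 4.72 and 2.68 CPM. The highest LPS library was well below the lowest control at both ages. The log2 fold change was −2.80 ± 0.14 in young and −2.45 ± 0.20 in aged cells (adjusted p = 4.4e-21 and 3.5e-14, edgeR).

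Bcl2l1, which encodes Bcl-xL, held 84.8, 105 and 159 CPM in young controls and 191, 205 and 217 CPM in young LPS libraries (lowest, median and highest). Aged controls held 106, 98.9 and 117 CPM and aged LPS libraries 242, 210 and 212 CPM. The groups did not overlap on this scale, and the log2 fold change was 0.90 ± 0.09 in young cells and 1.04 ± 0.13 in aged cells (adjusted p = 1.1e-11 and 2.6e-09, edgeR). Scaled by total counts it was 0.10 in young cells, which did not pass (adjusted p = 0.321, edgeR), and 0.30 in aged cells (adjusted p = 0.0297, edgeR).

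**Figure D3:**
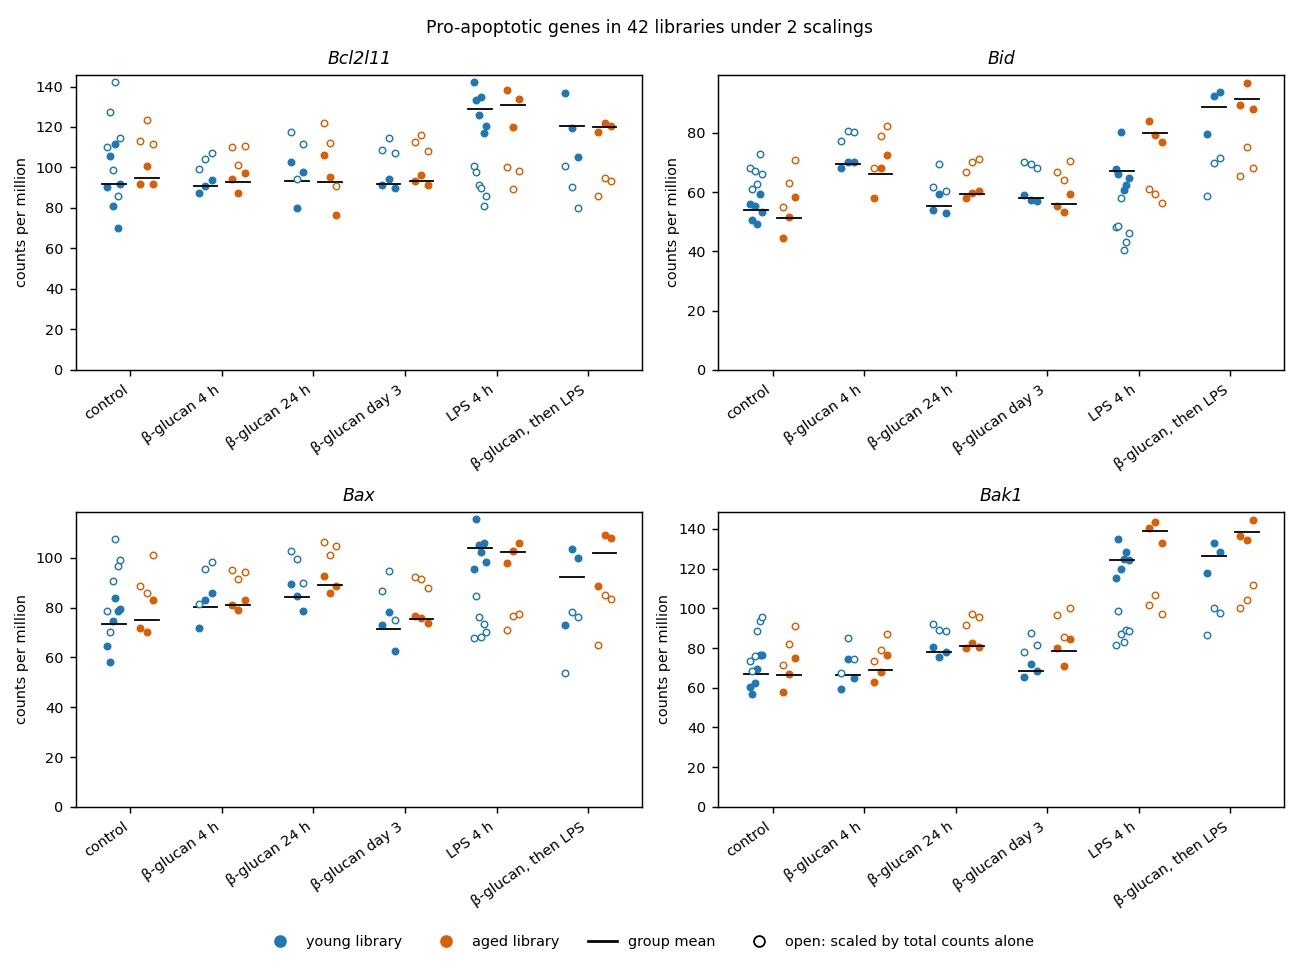
Level of the 4 pro-apoptotic genes in every library in CPM, filled points after TMM scaling and open points after scaling by total counts alone, with black lines at the TMM group means. With LPS the filled points move up and the open points of Bcl2l11, Bid and Bax move down, so the direction of these 3 genes depends on the scaling.

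For Bcl2l11, Bid and Bax, the direction under LPS depended on the scaling. Bax, a pore-forming effector, held 58.1, 76.7 and 84.0 CPM (lowest, median and highest) in young controls and 95.6, 104 and 115 CPM with LPS after TMM scaling. By total counts alone its mean went the other way, from 90.4 ± 13.7 to 73.4 ± 6.3 CPM (SD, n = 6 each). The log2 fold change was therefore 0.51 ± 0.08 with TMM (adjusted p = 1.8e-07, edgeR) and −0.29 with total counts (adjusted p = 0.00211, edgeR). In aged cells the corresponding values were 0.45 ± 0.11 and −0.29.

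Bcl2l11 encodes Bim, the trigger that binds every survival member. Its levels ran from 69.9 to 111 CPM in young controls and from 117 to 142 CPM with LPS, a log2 fold change of 0.49 ± 0.08 with TMM (adjusted p = 1.2e-06, edgeR) and of −0.31 with total counts (adjusted p = 0.000664, edgeR). In aged cells it was 0.46 ± 0.12 and −0.27. Bid, the trigger that caspase-8 cuts, ran from 49.2 to 59.3 CPM in young controls and from 60.6 to 80.3 CPM with LPS. Its log2 fold change was 0.31 ± 0.07 with TMM (adjusted p = 5.6e-05, edgeR) and −0.49 with total counts (adjusted p = 2.6e-08, edgeR). In aged cells Bid had 0.64 ± 0.09 and −0.10, the latter with an adjusted p of 0.37 (edgeR).

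Bak1, the second pore-forming effector, changed most among the pro-apoptotic genes after TMM scaling. Young controls held 56.7, 66.0 and 76.6 CPM (lowest, median and highest) and young LPS libraries 115, 124 and 135 CPM. Aged controls held 57.8, 66.8 and 74.7 CPM and aged LPS libraries 140, 143 and 133 CPM. The groups did not overlap on this scale. The log2 fold change was 0.90 ± 0.07 in young and 1.06 ± 0.09 in aged cells (adjusted p = 4.1e-16 and 2.3e-13, edgeR), and with total counts it was 0.10 in young cells (adjusted p = 0.178, edgeR) and 0.33 in aged cells (adjusted p = 0.00315, edgeR).

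Bid overlaps Bcl2l13 on the opposite strand, and the strand setting of the counting is not given. Bcl2l13 had 760 to 2825 counts per library, up to 82.8% of the count of Bid, so reads of the 2 genes may not be fully separated. The largest overlapping gene of Bcl2a1d, the antisense gene Gm10634, reached 4.07% of its count.

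Ratios of these genes within each library do not depend on scaling. Counts were divided by the gene length in the deposited table, and the 6 survival genes together made up 69.8% ± 1.7 (SD, n = 6) of the per-length counts of the 10 genes in young controls and 91.4% ± 0.8 (n = 6) with LPS. In aged cells the share went from 69.3% ± 2.7 to 89.9% ± 0.2 (n = 3 each). The lowest share with LPS, 89.7% in an aged library, was more than the highest in any control, 72.2%. The pair of A1 genes alone went from 12.5% ± 1.8 to 57.4% ± 3.0 of the 10 genes in young cells, so a large part of this shift rests on genes whose reads are shared. No test was made on these shares.

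Single pairs moved by different amounts. Per length, the log2 ratio of Bcl2 to Bax went from −4.26 ± 0.43 in young controls to −7.56 ± 0.26 with LPS. That of Mcl1 to Bax went up from 1.74 ± 0.21 to 2.47 ± 0.09, and that of Mcl1 to Bcl2l11 from 3.77 ± 0.21 to 4.51 ± 0.11. The ratio of Bcl2l1 to Bak1 was −0.24 ± 0.33 in controls and −0.21 ± 0.03 with LPS, with the young LPS libraries inside the range of the young controls, while 1 aged LPS library (−0.38) was just below the lowest aged control (−0.36). Bak1 gained on Bax, from −0.74 ± 0.11 to −0.35 ± 0.05, with no overlap between control and LPS libraries. Cflar and Bid exchanged places, with a log2 ratio of −0.48 ± 0.15 in controls and 3.37 ± 0.14 with LPS.

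**Figure D4:**
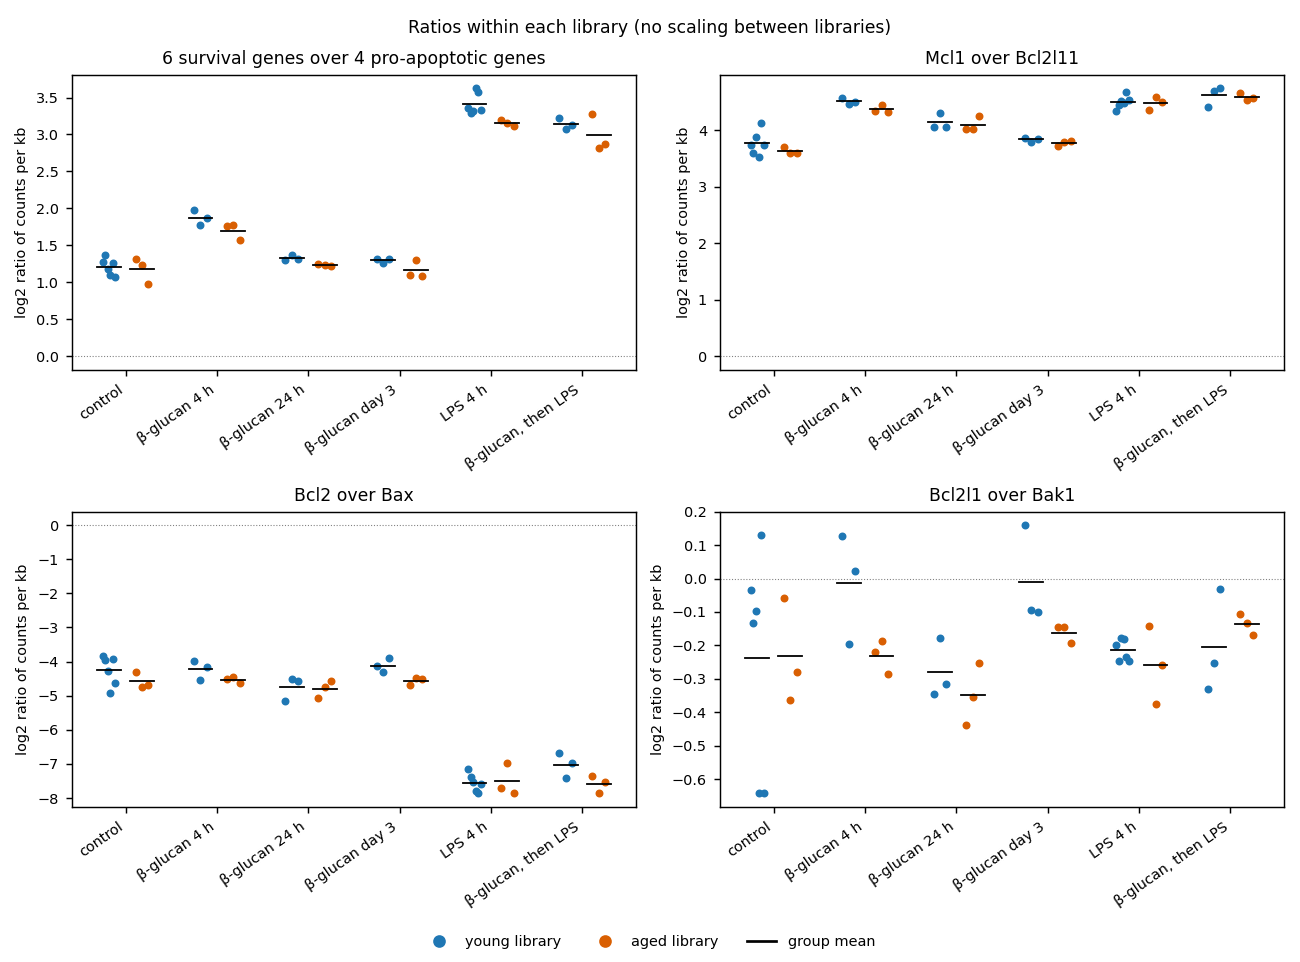
Log2 ratios of counts per kilobase within each library, by treatment and age, with black lines at the group means and a dotted line at 0 (equal). The survival genes together gain on the pro-apoptotic genes with LPS and, to a smaller extent, at 4 h of β-glucan, Bcl2 loses on Bax with LPS, and the ratio of Bcl2l1 to Bak1 in young LPS libraries lies within the range of the young controls.

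The rank of the genes changed with LPS. On the scale of TMM-scaled CPM per kilobase, young controls had Mcl1 highest at 154 ± 5, followed by Bax at 46.5 ± 6.3, Bcl2a1b at 33.8 ± 8.8, Bak1 at 27.8 ± 3.5 and Bcl2l1 at 24.0 ± 5.7 (SD, n = 6). Bid, Bcl2l11, Cflar and Bcl2a1d followed between 15.2 and 8.25, and Bcl2 was lowest at 2.46 ± 0.54. With LPS, Bcl2a1d led at 754 ± 100, ahead of Mcl1 at 364 ± 11, Bcl2a1b at 276 ± 58 and Cflar at 195 ± 10, and Bcl2 was again lowest at 0.354 ± 0.065. Since all values of a library share 1 scaling factor, the rank within it does not depend on the scaling.

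β-Glucan at 4 h raised part of the same set by smaller amounts. In young cells 4 of the 10 genes were higher than in control and none was lower, where 12.1% of all genes were called, 7.45% as higher. In aged cells the same number, 4, was higher, where 6.47% of all genes were called and 4.87% as higher. At both ages these were Bcl2a1d, Mcl1, Cflar and Bid. With total-count scaling the all-gene median shifted by −0.11 in young cells and −0.079 in aged cells, so the larger changes did not depend on it.

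Bcl2a1d stood at 37.1, 28.6 and 30.9 CPM at 4 h in young cells, above the highest control at 10.2 CPM, and at 23.2, 29.2 and 22.6 CPM in aged cells. Its log2 fold change was 2.19 ± 0.17 in young and 1.52 ± 0.19 in aged cells (adjusted p = 2.2e-11 and 7.5e-07, edgeR). Cflar stood at 345, 283 and 305 CPM in young and 241, 254 and 267 CPM in aged cells, a log2 fold change of 1.12 ± 0.08 and 1.04 ± 0.08 (adjusted p = 2.5e-14 and 4.5e-12, edgeR). For both genes, every 4 h library was above every control of its age.

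Mcl1 rose to 889, 854 and 908 CPM in young and to 816, 818 and 835 CPM in aged cells. Its log2 fold change was 0.76 ± 0.06 and 0.71 ± 0.07 (adjusted p = 8.3e-13 and 1.1e-10, edgeR), without overlap with controls. Bid stood at 68.1, 70.3 and 70.0 CPM in young and at 58.0, 68.2 and 72.4 CPM in aged cells, where the lowest 4 h library was below the highest control at 58.2 CPM. Its log2 fold change was 0.32 ± 0.09 in young and 0.36 ± 0.09 in aged cells (adjusted p = 0.0087 and 0.0078, edgeR). With total counts the call of Bid was lost at both ages (0.20 with adjusted p = 0.142 and 0.28 with adjusted p = 0.0766, edgeR). In aged cells it was also lost with the 2 groups fitted alone (0.36, adjusted p = 0.0709), without control replicate 1 (adjusted p = 0.129) or without 4 h replicate 3 (adjusted p = 0.104).

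Bcl2a1b at 4 h held 28.0, 48.4 and 46.8 CPM in young cells, where the lowest library lay within the range of the controls, and its log2 fold change of 0.83 ± 0.29 did not pass (adjusted p = 0.0617, edgeR). It passed without 4 h replicate 1 (1.02, adjusted p = 0.0397), with DESeq2 (0.81, adjusted p = 0.036) and with the 2 groups fitted alone (0.91, adjusted p = 0.0128). The summed copies of A1 rose at 4 h by 1.28 on the log2 scale in young cells (adjusted p = 7.2e-07, edgeR) and by 0.66 in aged cells (adjusted p = 0.0207, edgeR). The share of Bcl2a1b among the copies was 53.8% ± 10.6 in young and 55.0% ± 6.6 in aged cells (SD, n = 3 each). Bcl2, Bcl2l1, Bcl2l11, Bax and Bak1 had log2 fold changes from −0.05 to 0.20 at 4 h over both ages and did not pass. Leaving out young control replicate 5, the highest control for Bcl2l1, let Bcl2l1 pass at 4 h (0.27, adjusted p = 0.0227, edgeR) and at 24 h (0.25, adjusted p = 0.0451).

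By 24 h of β-glucan the changes were smaller, and Mcl1 was the member called at both ages. Mcl1 held 730, 674 and 698 CPM in young and 739, 658 and 627 CPM in aged cells, between its levels in control and at 4 h. The log2 fold change against control was 0.42 ± 0.06 in young and 0.43 ± 0.06 in aged cells (adjusted p = 2.7e-06 and 2.6e-05, edgeR). When the aged 24 h and control groups were fitted alone, its adjusted p was 0.0625. In young cells 3 of the 10 genes were higher at 24 h, where 11.5% of all genes were called, 7.79% as higher, and in aged cells 2 were higher, where 5.22% were called, 4.02% as higher.

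The other calls at 24 h were less stable. Bcl2a1d in young cells held 13.0, 12.9 and 11.3 CPM, each above the highest control at 10.2 CPM, a log2 fold change of 0.82 ± 0.18 (adjusted p = 0.0023, edgeR), but the summed copies had only 0.09 (adjusted p = 0.815) and the groups fitted alone gave an adjusted p of 0.179. Bak1 in young cells, whose 24 h libraries overlapped the controls, rose by 0.31 ± 0.09 (adjusted p = 0.012, edgeR). It did not pass with total counts (0.21, adjusted p = 0.133) or without the set term (0.22, adjusted p = 0.114). Its call was also lost without control replicate 2 (adjusted p = 0.0601) or 24 h replicate 1 (adjusted p = 0.0873). In young cells Bax, not called above, passed on replicates 1 to 3 alone (0.36, adjusted p = 0.0207, edgeR). Bcl2, also not called above, passed as lower without 24 h replicate 2 (−0.53, adjusted p = 0.0473, edgeR). Cflar in aged cells rose by 0.28 ± 0.08 (adjusted p = 0.0423, edgeR) and was lost under most alternatives, with an adjusted p of 0.103 with total counts and from 0.0544 to 0.201 when each of 5 of the 6 libraries was left out. Bak1 in aged cells had 0.29 and did not pass (adjusted p = 0.0561, edgeR). It passed with DESeq2 (0.27, adjusted p = 0.0414), with young replicates 1 to 3 alone (0.29, adjusted p = 0.0448) and without control replicate 3 (0.38, adjusted p = 0.0165).

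At day 3 after β-glucan none of the 10 genes differed from control in young or aged cells by edgeR's test, where 0.782% and 0.221% of all genes were called. DESeq2 called none either. At an unadjusted p below 0.05 there was 1 member in young cells and 2 in aged cells. Bcl2l1 had the largest log2 change of these, 0.26 ± 0.12 in young cells (139, 129 and 122 CPM) and 0.32 ± 0.13 in aged cells (138, 123 and 141 CPM). The young libraries lay between the highest control at 159 CPM and the rest, and without that control, replicate 5, Bcl2l1 passed (0.34, adjusted p = 0.0314, edgeR). Mcl1 held 567, 561 and 552 CPM in young and 527, 566 and 543 CPM in aged cells, each above every control of its age, but its log2 changes of 0.10 ± 0.06 and 0.12 ± 0.06 did not pass.

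**Figure D5:**
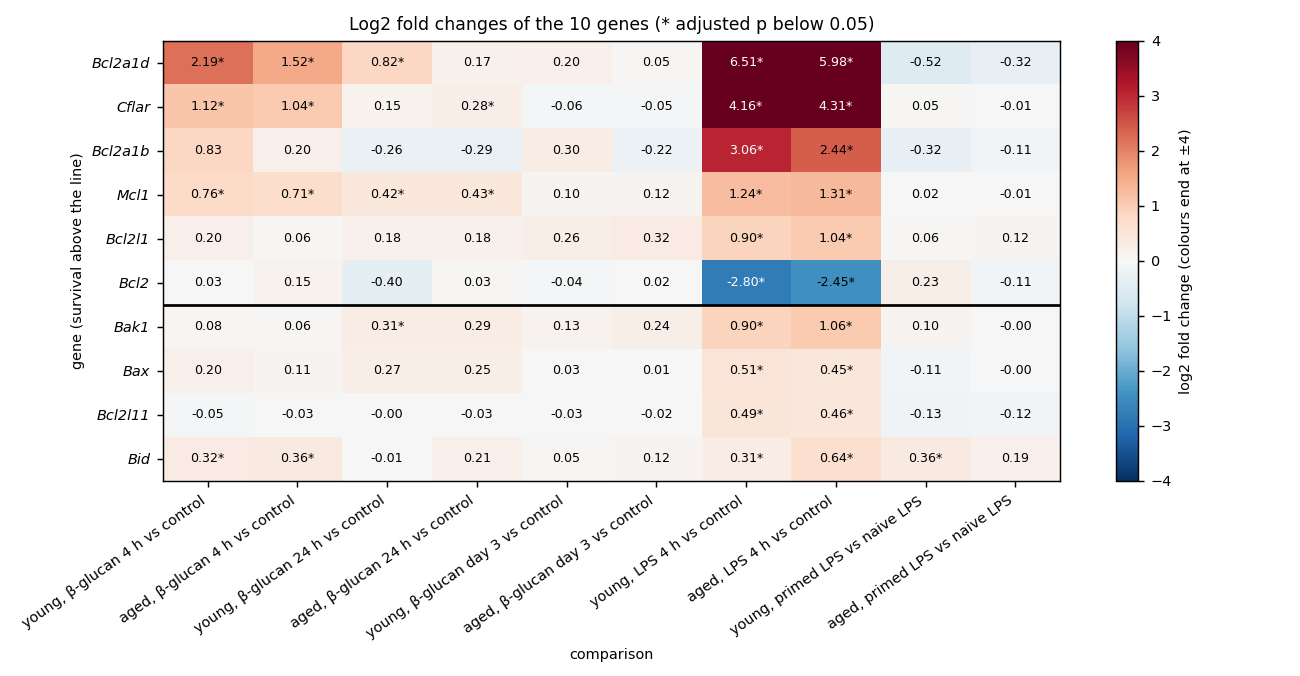
Log2 fold changes of the 10 genes after TMM scaling in 10 comparisons, as numbers and colours, with an asterisk where the adjusted p was below 0.05. The LPS columns hold the largest values at both ages, those at day 3 of β-glucan hold no call, and the LPS values of Bcl2l11, Bid and Bax turn negative with total-count scaling.

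Earlier β-glucan gave few calls among these genes under LPS. Primed cells were first set against cells that had LPS without β-glucan. In young cells 1 of the 10 genes, Bid, was higher in primed cells, where 3.61% of all genes were called, 2.44% as higher. Bid held 79.6, 92.5 and 93.6 CPM in primed cells against 60.6 to 80.3 CPM with LPS alone, and the groups overlapped by 1 library, LPS replicate 3. The log2 fold change was 0.36 ± 0.09 (adjusted p = 0.0098, edgeR). It did not pass without primed replicate 2 (adjusted p = 0.071) or 3 (adjusted p = 0.079), nor with young replicates 1 to 3 alone (0.31, adjusted p = 0.0526), nor with the 2 groups fitted alone (0.32, adjusted p = 0.0808).

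Bcl2a1d was lower in each primed young library, at 433, 437 and 474 CPM, than in any with LPS alone, the lowest of which held 579 CPM. Its log2 fold change of −0.52 ± 0.17 did not pass (adjusted p = 0.0833, edgeR), although it passed with DESeq2 (−0.55, adjusted p = 0.0238), without a term for the replicate set (−0.54, adjusted p = 0.0234), with young replicates 1 to 3 alone (−0.42, adjusted p = 0.0432) and with the 2 groups fitted alone (−0.41, adjusted p = 0.018). In aged cells the primed libraries held 517, 399 and 400 CPM against 567, 550 and 530 CPM, a log2 fold change of −0.32 ± 0.17 that did not pass (adjusted p = 0.494, edgeR). The summed copies of A1 had −0.37 in young and −0.30 in aged cells, and neither passed. Bcl2a1a, outside the 10, held 49.4 to 57.5 CPM in primed young cells against 66.3 to 94.6 CPM with LPS alone. In aged cells it held 44.0 to 58.1 against 70.2 to 85.6 CPM. These groups did not overlap at either age, but Bcl2a1a was not called. None of the 10 genes passed in aged cells by edgeR or DESeq2, where 0.986% of all genes were called and 1 member, Bid, had an unadjusted p below 0.05 (0.19 ± 0.09).

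The rise with LPS was also measured from the primed state, against cells 3 days after β-glucan. After TMM scaling all 10 genes changed at both ages, 9 higher and 1, Bcl2, lower. In young cells 51.7% of all genes were called, 24.9% as higher and 26.7% as lower, and in aged cells 52.2%, 24.8% as higher and 27.4% as lower. Cflar had a log2 fold change of 4.27 ± 0.10 in young and 4.34 ± 0.10 in aged cells, Bcl2a1d 5.79 ± 0.22 and 5.60 ± 0.22, and Bcl2 −2.53 ± 0.20 and −2.58 ± 0.20. Under total-count scaling, with a shift of the all-gene median of −0.67 and −0.65, Bcl2l11 and Bax turned negative at both ages and Bid in young cells. The members called were then 7 in young cells, 4 higher and 3 lower (Bcl2, Bcl2l11 and Bax), and 6 in aged cells, 4 higher and 2 lower (Bcl2 and Bcl2l11). Of all 17648 genes, that scaling called 11491 in young and 11400 in aged cells, in either direction. Bax and Bcl2l11 were also lost in young cells when 1 primed library was left out (adjusted p = 0.0509 without replicate 2 and 0.0566 without replicate 1).

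The difference between the LPS effect in primed and in unprimed cells was tested directly. No member passed at either age with edgeR, where 1.01% of all genes were called in young and 0.0113% in aged cells, and 2 members in young and 0 in aged cells had an unadjusted p below 0.05. DESeq2 called 1 member in young cells, Bcl2a1d (−0.73, adjusted p = 0.047), and none in aged cells. Bcl2a1d had −0.72 ± 0.23 in young cells (adjusted p = 0.135, edgeR), and passed without young control replicate 2 (−0.86, adjusted p = 0.0262) or 5 (−0.86, adjusted p = 0.0301). Bid had 0.30 ± 0.11 (adjusted p = 0.206, edgeR) and passed with total counts (0.43, adjusted p = 0.0347).

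The 2 stimuli share their 4 h exposure and were compared with each other. After TMM scaling, 9 of the 10 genes differed in young cells between LPS and β-glucan at 4 h, 8 higher and 1 lower with LPS, where 53.6% of all genes were called, 24.2% as higher and 29.4% as lower. In aged cells all 10 differed, 9 higher and 1 lower, where 51.6% were called, 23.9% as higher and 27.7% as lower. Cflar was higher with LPS by 3.05 ± 0.09 in young and 3.27 ± 0.09 in aged cells on the log2 scale, and Bcl2a1d by 4.32 ± 0.20 and 4.46 ± 0.20. Bcl2 was lower by −2.83 ± 0.17 and −2.61 ± 0.20. Mcl1 was higher by 0.48 ± 0.06 and 0.59 ± 0.06 with TMM, but had −0.20 (adjusted p = 0.00182, edgeR) and −0.060 with total counts, where the all-gene median shifted by −0.68 and −0.65. Bcl2l11 and Bax also turned negative with total counts at both ages, as did Bid in aged cells. In young cells Bid had no call with TMM and −0.69 with total counts (adjusted p = 4.9e-09, edgeR). Total counts gave 7 calls in young cells, 3 higher (Bcl2a1b, Bcl2a1d and Cflar) and 4 lower (Bcl2, Mcl1, Bid and Bax), and 8 in aged cells, 5 higher (the same 3 with Bcl2l1 and Bak1) and 3 lower (Bcl2, Bid and Bax). Of all 17648 genes, that scaling called 11875 in young and 11220 in aged cells, in either direction. The calls of Bax in young cells and of Bid in aged cells were also lost when a single library was left out. For Bax the adjusted p was 0.0714 without 4 h replicate 1 and 0.0553 without LPS replicate 2, and for Bid it was 0.133 without 4 h replicate 1 and 0.0591 without LPS replicate 1.

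Age made little measured difference to these genes. None of the 10 passed edgeR's test or DESeq2 in any of the 6 comparisons of aged with young cells under the same treatment. Of all genes, 0.442% were called in control, 0.00567% at 4 h, 0.017% at 24 h and 0.0113% at day 3 of β-glucan, 0.895% with LPS and 0.0283% in primed cells. At an unadjusted p below 0.05 there was 1 member in control (Cflar, −0.16 ± 0.07), 1 at 4 h (Cflar, −0.24 ± 0.09) and 1 with LPS (Bid, 0.26 ± 0.08, adjusted p = 0.119), and 0 in the other 3. Bid in LPS libraries held 84.0, 79.3 and 76.7 CPM in aged cells, above every young library but replicate 3 at 80.3 CPM. Without that library Bid passed (adjusted p = 0.0396, edgeR), and it passed with total counts (adjusted p = 0.0467).

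The age difference of each treatment effect was tested as well, and no member passed with edgeR or DESeq2. Of all genes, 0.00567% were called for the 4 h effect, 0% for the 24 h, day 3 and LPS effects, and 0.00567% for the effect of priming under LPS. The members with an unadjusted p below 0.05 numbered 1, 1, 0, 2 and 0 in that order. Bcl2a1d accounted for 3 of these: its effect was less in aged than in young cells by −0.67 ± 0.26 at 4 h, −0.64 ± 0.27 at 24 h and −0.53 ± 0.23 with LPS on the log2 scale. These 3 values share the control libraries of both ages, and the adjusted p was 0.80 or more for each (edgeR). The standard errors leave room for age differences of this size in Bcl2a1d and bound those of Mcl1, at −0.05 ± 0.09 for the 4 h effect and 0.06 ± 0.08 for the LPS effect, more tightly.

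The order of the 12 groups was read from the group means. For Bcl2a1d it was young LPS (651 ± 86 CPM), aged LPS (549 ± 19), young primed (448 ± 23), aged primed (439 ± 68), young 4 h (32.2 ± 4.4), aged 4 h (25.0 ± 3.7), young 24 h (12.4 ± 0.9) and then the other 5 groups between 9.81 and 7.12. Among its neighbours, the 2 primed groups, the 2 groups at 4 h and the last 5 overlapped. For Cflar the 4 groups with LPS overlapped each other between 2650 and 2428, followed without overlap by young 4 h (311 ± 32), aged 4 h (254 ± 13) and young 24 h (160 ± 2), with the remaining groups from 149 to 120. Mcl1 had the same succession: 4 overlapping groups with LPS between 1254 and 1236, then young 4 h (884 ± 28), aged 4 h (823 ± 10), the 2 groups at 24 h (701 ± 28 and 675 ± 58), which overlapped, and the other 4 between 560 and 502. Scaled by total counts, the means of Mcl1 at 4 h of β-glucan, 1009 CPM in young and 951 CPM in aged cells, were above those of the 4 groups with LPS, 880 to 942 CPM. For Bcl2 the 8 groups without LPS overlapped their neighbours from 25.0 to 18.3, and the 4 with LPS did so from 4.11 to 3.11.

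The remaining members showed mainly a step between libraries with and without LPS after TMM scaling. Bcl2a1b had 4 groups with LPS between 226 ± 48 and 150 ± 57 and 8 others between 41.1 ± 11.3 and 19.3 ± 7.6, each overlapping the next. Bcl2l1 ran from 240 ± 6 in aged primed cells down to 204 ± 9 with LPS in young cells, then from 134 ± 10 to 107 ± 9. Bak1 ran from 139 ± 5 in aged LPS cells to 125 ± 7 in young LPS cells, and then from 81.0 ± 1.4 to 66.3 ± 7.5. The aged and the young primed groups, next to each other in this order, did not overlap, but the highest young LPS library was above the lowest aged LPS library. With total counts the groups with LPS no longer all stood above the rest for either gene. Bcl2l1 had a mean of 145 CPM in young LPS cells, below 156 and 160.5 CPM at day 3 in young and aged cells, and Bak1 had 88.1 CPM in young LPS cells, below 90.0 and 94.8 CPM at 24 h. The ranges of Bcl2l11 (131 to 90.8), Bid (91.3 to 51.4) and Bax (104 to 71.2) were narrow, and the place of their LPS groups depends on the scaling.

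The genes most like each member over the 12 group means of log2 CPM were found by Pearson's correlation among genes whose mean log2 CPM was 3 or more. They describe a step between 4 groups with and 8 without LPS, and the points share libraries. For Bcl2a1d they were Casp4, Dram1 and Zhx2 (r = 0.999, 0.999 and 0.998). For Cflar they were Nrp2, Cers6 and Plagl2 (each r = 0.999), for Mcl1 Tnip1, Clec4e and Ccrl2 (r = 0.995, 0.995 and 0.995), and for Bcl2 Uhrf2, Soga1 and Fmnl3 (r = 0.995, 0.995 and 0.994).

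Other genes of the pathway were taken from 5 lists of 62 genes in all. Their counts with LPS after TMM scaling stand beside the 30.3% and 34.7% of all genes called as higher and lower in young cells, and the 26.6% and 28.9% in aged cells. With total counts, 13337 of 17648 genes were called in young and 11851 in aged cells. Shares by direction were not taken for that scaling. Of 17 other Bcl2-family genes 12 were tested, and with LPS 3 were higher and 5 lower in young cells, with a median log2 fold change of −0.13 beside −0.10 for all genes. Bmf, a BH3-only trigger, fell by 5.81 on the log2 scale in young and by 4.82 in aged cells, and Bcl2l12 fell by 2.41 and by 2.17. Bcl2l2 (Bcl-w), a survival member, rose by 0.68 at both ages with TMM and had −0.12 and −0.06 with total counts. With total counts the list had 1 higher and 7 lower in young cells. At 4 h of β-glucan Pmaip1 (Noxa), a trigger that antagonises Mcl1, rose by 0.87 in young and by 0.82 in aged cells, and Bnip3 rose by 0.60 in young cells.

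Of 9 inhibitor of apoptosis genes, 6 were higher and 2 lower with LPS in young cells, with a median of 0.48 on the log2 scale, and with total counts 3 were higher and 5 lower. Birc3 and Birc2 (cIAP2 and cIAP1), ubiquitin ligases of the tumour necrosis factor receptor, rose by 3.70 ± 0.14 and 2.48 ± 0.10, and by 2.89 and 1.68 with total counts. Xiap, which inhibits caspases directly, rose by 0.99 ± 0.07, and by 0.18 with total counts. Birc3 also rose at 4 h of β-glucan, by 1.38 ± 0.17 in young and 1.41 ± 0.19 in aged cells.

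Among 14 caspase and apoptosome genes, 6 were higher and 8 lower with LPS in young cells, with a median of −0.73, and 5 higher and 8 lower in aged cells. With total counts 3 were higher and 9 lower at both ages, with medians of −1.53 in young and −1.28 in aged cells. Cycs (cytochrome c) rose by 1.55 ± 0.09 and Casp8 by 1.06 ± 0.07, and both also rose with total counts, by 0.75 and 0.26. Casp9, the initiator that the apoptosome activates, fell by 1.71 ± 0.07 in young and by 1.88 ± 0.10 in aged cells. At 4 h of β-glucan 5 of the 14 were lower in young cells and none was higher, where 4.61% of all genes were called as lower. With total counts 7 were lower, where 2455 of 17648 genes were called in either direction. Casp2 fell by 0.68 ± 0.12, Casp8 by 0.41 ± 0.09 and Casp9 by 0.31 ± 0.09 in young cells. In aged cells 2 were lower, where 1.59% of all genes were called as lower, among them Casp8 with −0.39 ± 0.09. Casp8 thus fell at 4 h of β-glucan and rose at 4 h of LPS, under both scalings and at both ages.

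Of 10 death receptor and necroptosis genes, 6 were higher and 3 lower with LPS in young cells, with a median of 0.64, and 4 higher and 4 lower with total counts. Mlkl, the pore-former of necroptosis, rose by 3.70 ± 0.09, Fas by 2.91 ± 0.16, Traf2 by 2.16 ± 0.07 and Tnfrsf1a by 1.32 ± 0.05, each higher with total counts as well. Fas and Traf2 also rose at 4 h of β-glucan, by 1.22 ± 0.20 and 0.61 ± 0.10 in young cells. Fadd, the adaptor between death receptors and caspase-8, was the one list gene called between primed and unprimed young LPS cells, higher by 0.70 ± 0.15 than with LPS alone (adjusted p = 0.0044, edgeR).

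Of 12 survival kinase genes and genes that handle Mcl1 or Bcl2, 8 were higher and 3 lower with LPS in young cells, with a median of 0.46, and 4 higher and 7 lower with total counts. Pim1, a kinase whose substrates include Bad, rose by 5.25 ± 0.15 and Usp9x, a deubiquitinase of Mcl1, by 1.09 ± 0.08, both also with total counts. Bag4 fell by 1.81 ± 0.14. Pim1 rose as well at 4 h (1.70 ± 0.17) and 24 h (1.37 ± 0.17) and, in young cells, 3 days after β-glucan (0.79 ± 0.17, adjusted p = 0.012, edgeR), where no member of the 10 passed. For the difference between the LPS effects in primed and unprimed young cells, 2 list genes passed, Pim1 with −0.93 ± 0.22 (adjusted p = 0.0333, edgeR) and Casp2 with 0.59 ± 0.15 (adjusted p = 0.0426, edgeR). Naip1 passed between aged primed and aged LPS cells (adjusted p = 0.00799, edgeR), but was at 0 counts in every aged LPS library and is given no fold. Bnip3 was the single gene of the 5 lists that differed by age within a treatment, higher in aged than in young controls by 0.44 ± 0.10 (adjusted p = 0.0292, edgeR).

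Young control and young LPS held replicates 4 to 6 as well as 1 to 3, and the labels do not say how the sets differ. Between the sets 17.4% of all genes were called and 0 of the 10 members by edgeR, with 2 members, Bak1 (0.17 ± 0.06) and Bcl2a1b (0.45 ± 0.22), at an unadjusted p below 0.05. DESeq2 was not run on this term. The model carried a term for the set in young libraries. The aged libraries have no such sets, and the young groups at 4 h, 24 h and day 3 of β-glucan and the young primed group hold replicates 1 to 3 alone, so a part of the set difference enters their comparison with aged cells. On young replicates 1 to 3 alone, 0 of the 10 members were called by age in any of the 6 treatments. Over all genes, 65 were called there in control, 30 at 4 h, 49 at 24 h and 11 at day 3 of β-glucan. With LPS 58 were called, and 36 in primed cells. With so few genes called, the count of 0 says little about the members. On young replicates 1 to 3 alone, the age difference of Cflar was −0.24 in control and −0.29 at 4 h, and that of Bid with LPS was 0.16.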

How the data were processed

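Bulk RNA of macrophages grown from marrow was sequenced in 42 samples. Per the labels' protocols, extraction used Qiagen RNeasy columns with a DNase step, and the library kit was NEBNext Ultra RNA. The submitters' processing notes name STAR and mm10. Versions, the counting program, read length and strand setting are not given in the sources used here. The authors deposited a table of unnormalised counts per gene with gene lengths and positions, and all results come from these counts. The deposited FPKM table was not used. Depth was 39850835 to 67347866 counts per library.

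The tests used edgeR 4.0.16 under R 4.3.3. A filter (filterByExpr, minimum count 10) left 17648 of 54532 genes, or 32.4%. Libraries were scaled by TMM, and a single quasi-likelihood fit took in all 42 libraries, with 12 group means and a term for young replicates 4 to 6. A total of 27 comparisons were tested, with Benjamini-Hochberg adjustment over all tested genes within each. Young group means were taken midway between the replicate sets, also in groups with replicates 1 to 3 only, which bears on their comparison with aged groups. The standard error is the absolute log2 fold change over the square root of F. Levels are TMM-scaled CPM, and the log2 CPM used for the correlations have a prior count of 2. The count test was checked on simulated data. No pair of libraries in a group agreed within sampling noise (chi-square per gene of at least 9.28 over 60 pairs).

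The alternatives were RLE scaling, total-count scaling, no count filter, DESeq2 1.42.0, no set term, young replicates 1 to 3 alone, the compared groups alone, a replicate block, summed A1 copies and each library left out. Ratios within libraries, and the pathway lists under total counts, were added after seeing the data. The 10 genes and all lists were chosen with earlier results of these data known. All members are named, with the 3 best-correlated genes for 4 of the members with a called change (Bcl2a1d, Cflar, Mcl1 and Bcl2), and up to 4 genes of each list per comparison with the smallest adjusted p. Bcl2l2 is outside this rule and was chosen after its values were seen. Some list genes that the rule would name are not reported here. Promoter windows came from RefSeq (GRCm38.p6) and coding sequences from GENCODE M21. Figures were drawn with matplotlib 3.10.9.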

Additional observations from a re-analysis of the deposited data

Results flagged for a closer look

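A library was listed here where it lay far from the other 5 of its group (Dixon's test at 95%), which was tried for each of the 10 genes in the 2 groups with 6 libraries, 20 tests in all. Chance alone marks about 1 in 20 such groups, and 2 were marked. Bcl2l1 held 159 CPM in young control replicate 5, where the other controls held 84.8 to 112 CPM. Bid held 80.3 CPM in young LPS replicate 3, where the other LPS libraries held 60.6 to 67.7 CPM. The results without these libraries are given beside the comparisons they touch. The causes were not tested.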

How the results depend on the processing

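Scaling by total counts alone was the choice that changed most results. Of 270 log2 fold changes, 236 kept their direction and side of the threshold under it, 269 under RLE scaling, 269 without the count filter, 266 with DESeq2, 267 when the set term was dropped, 266 on young replicates 1 to 3 only and 263 with the groups of a comparison fitted alone. With total counts the sign of a called value turned 18 times, since the scaling itself subtracts 0.65 to 0.80 from every log2 fold change between libraries with and without LPS. For LPS against control these were Bcl2l11 (−0.31 in young, −0.27 in aged cells), Bid (−0.49, −0.10) and Bax (−0.29, −0.29). For primed cells against day 3 of β-glucan they were Bcl2l11 (−0.29, −0.30), Bax (−0.30, −0.22) and, in young cells, Bid (−0.058). For LPS against β-glucan at 4 h they were Mcl1 (−0.20, −0.060), Bcl2l11 (−0.15, −0.16), Bax (−0.37, −0.32) and, in aged cells, Bid (−0.38). Values that passed under neither setting changed sign 27 times with total counts and at most 23 times under the other settings that refit all libraries or the groups alone.

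The number of members called, 10 for aged primed cells against day 3, was 6 with total counts, where 11400 of 17648 genes were called. In the results above 9213 were called there. Below, calls over all genes stand in brackets, except where libraries were left out. For primed against unprimed LPS in young cells, the number of members was 1 above (637), 2 with DESeq2 (879) and 2 without the set term (1385). It was 0 to 1 when each library was left out. For the difference of the LPS effects in young cells, 0 above (179), it was 1 with total counts (503) and 1 with DESeq2 (372). With each library left out it was 0 to 1. For 24 h of β-glucan in aged cells, 2 above (922), it was 1 with RLE scaling (876) and with total counts (898). It was also 1 without the count filter (713) and without the set term (620), and 0 with the groups fitted alone (214). It was 3 with DESeq2 (1141), with young replicates 1 to 3 alone (1106) and with the replicate block (1117), and 1 to 2 with each library left out. For aged against young LPS, 0 above (158), it was 1 with total counts (217) and 0 to 1 with each library left out. For day 3 in young cells, 0 above (138), it was 0 to 1 with each library left out. Except where total counts apply, the cause was not tested.

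Replicate numbers showed no strong pairing of the samples. Correlations of same-numbered libraries' deviations were −0.013 to 0.072 in young and −0.036 to 0.114 in aged cells. Of 45 pairs, 1 in aged and 0 in young cells was over 0.1. The medians were 0.012 in young and 0.042 in aged cells, against −0.006 and −0.020 for libraries of other numbers. Correlations this small over all genes cannot exclude a weak pairing. With the replicate block, 269 of 270 values kept their side, and Bak1 at 24 h in aged cells passed (0.29, adjusted p = 0.0361, edgeR). The lowest count of a member in any library was 75, for Bcl2. Precision is limited by 3 libraries in most groups and, for the A1 copies, by shared reads.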
